A study of Mus musculus with 6 samples.

Results

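Cadherins and protocadherins, the calcium-dependent adhesion receptors of the cell surface, were taken from the RNA-seq counts of NIH3T3 mouse fibroblasts. Members were the protein-coding genes whose symbols are Cdh or Pcdh followed by a number, or begin with Pcdha, Pcdhb or Pcdhg, without the endothelial cadherin Cdh5. The rule found 91 genes among the 55401 gene identifiers counted, and 65 of them were expressed well enough to enter the test of 18539 genes. Of the 26 members outside the test, 16 had no count in any library and the highest count of the others in a library was 8.

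NIH3T3 is an established line of embryonic mouse fibroblasts. EV cells carried an empty vector and received DMSO (n = 2). TC cells expressed TAZ-CAMTA1, the fusion oncoprotein of epithelioid hemangioendothelioma, and received DMSO (n = 1). TC + ATA cells expressed TAZ-CAMTA1 and received 10 µM ATA, aurintricarboxylic acid, a compound studied for blocking the binding of TAZ to its TEAD partners (n = 3). All cells had been seeded without treatment before 48 h in DMSO or ATA. There were no empty vector cells with ATA, and the sources used here do not say whether the libraries of a group came from separate cultures, whether the TC cells were 1 clone or which promoter drove the fusion, so the tests measure the spread between these libraries, which may be technical.

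Classical cadherins join cells by binding cadherins on the neighbouring cell, and their cytoplasmic tails are tied to actin through catenins. Type I members such as E-cadherin (Cdh1) and N-cadherin (Cdh2) carry a conserved tryptophan at the binding face and give strong adhesion, while type II members such as Cdh11 are used by mesenchymal cells and the nervous system. Protocadherins bind more weakly and mostly signal. The clustered protocadherins lie in tandem alpha, beta and gamma arrays, from which neurons choose a few promoters each, a choice that depends on CTCF, cohesin and DNA methylation, and the alpha and gamma genes splice a variable exon to constant exons shared by the whole array.

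Library totals were between 58471484 and 74413193 counts. The 2 EV libraries differed from each other by a chi-square of 46.2 per degree of freedom over genes, the TC + ATA libraries by 4.86 to 5.41. CPM, the usual unit of counts scaled by library size, was computed with TMM-scaled sizes. Differences were tested with the edgeR quasi-likelihood test on all 6 libraries, with Benjamini-Hochberg adjustment over the 18539 genes, and a gene was called at an adjusted p of at most 0.05. The test uses 1 spread per gene for all groups, although the 2 EV libraries differed more than the TC + ATA libraries did. The spread between EV libraries may therefore be understated. With 1 TC library, its spread is taken to equal that of the other groups. All 10 fibroblast markers were above 1 CPM on average, with a summed level of 14708 to 19393 CPM, while the 10 epithelial markers summed to 1.55 to 4.54 CPM. Of the fibroblast markers, 2 were higher and 4 lower in TC against EV, beside 14.8% and 13.2% of all genes. In TC + ATA against EV 5 were higher and 3 lower, beside 18.0% and 18.6%. Lum was under 1 CPM in every TC and TC + ATA library. Of the fusion's endogenous partners, Wwtr1, which encodes TAZ, was at 110.3 and 104 CPM in EV, 139 CPM in TC and 129 to 131 CPM in TC + ATA, and Camta1 was at 15.4 to 19.2 CPM in all libraries, but reads from the transgene cannot be told apart from endogenous ones here. The TAZ target Ccn1 was at 275 and 332 CPM in EV, 779.9 CPM in TC and 736 to 772 CPM in TC + ATA.

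Between TC and EV cells, 6 members were higher and 19 were lower. Among all 18539 genes, 14.8% were higher and 13.2% lower, against 9.23% and 29.2% of the tested members. With the additional limit of an absolute log2 fold change of 2, 3 members were higher and 6 lower, beside 2.36% and 1.27% of all genes. Between TC + ATA and EV cells, 6 members were higher and 24 lower, beside 18.0% and 18.6% of all genes, and with the fold limit 3 were higher and 6 lower, beside 2.80% and 1.06% of all genes. No member was called between TC + ATA and TC cells, where 0.426% of all genes were higher and 0.156% lower. The median log2 fold change of the tested members was −0.53 in TC against EV and −0.39 in TC + ATA against EV, where all genes had medians of −0.03 and −0.01. Both comparisons rest on the same 2 EV libraries, so their shared calls are not separate evidence. In these bulk samples, fewer cells that express a gene and less RNA per cell cannot be told apart.

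**Figure D1:**
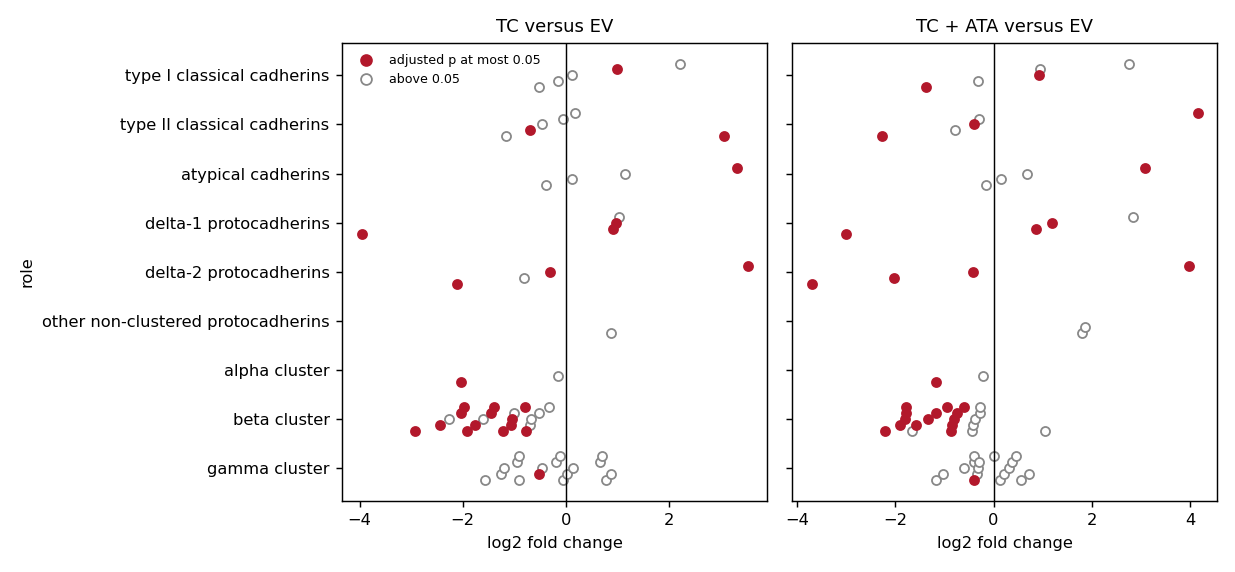
Log2 fold change of the tested members (x axis) in TC against EV (left) and TC + ATA against EV (right), with 1 row per role and 1 point per gene, and a vertical offset of points for legibility only. Filled points have an adjusted p of at most 0.05, and Pcdhb13 and Pcdh20 on the left and Cdh6 on the right are not drawn because they had no count in 1 of the groups. The beta cluster points lie left of 0 apart from 1 on the right, and the gamma cluster points lie on both sides of 0.

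N-cadherin and Cdh11 made up most of the cadherin signal, and their balance differed between EV and TC cells. Cdh2, N-cadherin, the classical cadherin of mesenchymal and neural cells (chromosome 18, 16588877 to 16809246, minus strand, GRCm38), had 69.6 and 65.7 CPM in EV, 135 CPM in TC, and 129, 131 and 125 CPM in TC + ATA. The TC and TC + ATA libraries were all above both EV libraries, and the log2 fold change was 0.99 in TC against EV (SE 0.08, adjusted p = 2.3e-05) and 0.92 in TC + ATA against EV (SE 0.06, adjusted p = 5.5e-06). Cdh11, the type II cadherin of osteoblasts and fibroblasts (chromosome 8, 102632095 to 102785642, minus strand), had 209.8 and 215 CPM in EV, 131 CPM in TC, and 166, 162 and 155 CPM in TC + ATA. The 3 groups did not overlap, with TC lowest. Cdh11 fell by 0.70 on the log2 scale in TC against EV (SE 0.08, adjusted p = 0.00031) and by 0.40 in TC + ATA against EV (SE 0.06, adjusted p = 0.00086).

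The summed level of the 22 cadherins, 297 to 326 CPM, varied little between libraries, while Cdh2 and Cdh11 moved in opposite directions. Cdh2 took 22.6% and 21.2% of this sum in EV, 45.4% in TC and 39.5%, 40.6% and 40.8% in TC + ATA. Cdh11 took 68.2% and 69.3% in EV, 44.0% in TC and 51.0%, 50.3% and 50.4% in TC + ATA. Per kilobase of exon, the level of Cdh2 was 0.366 and 0.338 times that of Cdh11 in EV, 1.14 times in TC and 0.855, 0.891 and 0.894 times in TC + ATA. N-cadherin thus passed Cdh11 per length in the TC library and stayed below it in the other libraries.

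Among the cadherins expressed at lower levels, a pair rose several-fold from low levels. Cdh17, the liver-intestine cadherin, an atypical cadherin whose short tail does not bind catenins (chromosome 4, 11758147 to 11817895), had 0.521 and 0.420 CPM in EV, 4.74 CPM in TC, and 4.73, 3.62 and 3.55 CPM in TC + ATA. It was higher by 3.33 (log2) in TC against EV (SE 0.27, adjusted p = 2.7e-05) and 3.07 in TC + ATA against EV (SE 0.23, adjusted p = 1.2e-05). Cdh19, a type II cadherin known from Schwann cell precursors (chromosome 1, 110888326 to 110977584), had 0.160 and 0.0656 CPM in EV, 0.965 CPM in TC, and 2.16, 1.96 and 2.01 CPM in TC + ATA. The TC + ATA libraries were the highest and EV the lowest, without overlap. Cdh19 differed by 3.08 in TC against EV (log2, SE 0.45, adjusted p = 0.0010) and by 4.16 in TC + ATA against EV (log2, SE 0.38, adjusted p = 3.8e-05). The EV level of Cdh19 rests on 12 and 5 counts, and without EV library 1 the log2 fold changes were 3.83 and 4.91.

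Cdh15, M-cadherin of muscle precursors (chromosome 8, 122847966 to 122867397), was called lower in TC + ATA against EV and not in TC against EV. It had 3.12 and 2.52 CPM in EV, 2.54 CPM in TC, and 1.06, 1.54 and 0.647 CPM in TC + ATA. The TC library lay between the EV libraries, and all TC + ATA libraries lay below them. Cdh15 fell by 1.38 on the log2 scale in TC + ATA against EV (SE 0.32, adjusted p = 0.0082), but its difference between TC + ATA and TC was not called (adjusted p = 0.31). Skeletal muscle markers summed to 325 and 458 CPM in EV, 424 CPM in TC and 495 to 648 CPM in TC + ATA. Acta1, Ckm, Ttn and Des carried nearly all of this sum, at means of 265, 104, 76.1 and 33.5 CPM. Myod1, Myf5 and Myog were at 1.18 CPM or less in every library and were not called. In TC + ATA against EV, 3 of the 9 tested markers were higher and 1 lower, beside 18.0% and 18.6% of all genes. The part of the muscle markers in the Cdh15 result was not tested.

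The remaining cadherins of NIH3T3 cells showed no call or rested on few reads. Cdh24, a broadly expressed type II cadherin, had 14.0 and 16.5 CPM in EV, 14.8 CPM in TC, and 13.3, 12.4 and 11.7 CPM in TC + ATA, with a log2 difference of −0.05 in TC against EV (95% interval −0.36 to 0.26) and −0.29 in TC + ATA against EV (−0.52 to −0.06, adjusted p = 0.052). Cdh26, an atypical cadherin, had 8.62 and 8.34 CPM in EV, 6.50 CPM in TC, and 7.32, 7.77 and 7.71 CPM in TC + ATA, with log2 differences of −0.38 (−0.69 to −0.08, adjusted p = 0.065) and −0.16 (−0.38 to 0.07). Without EV library 1 Cdh24 was called lower in TC + ATA against EV (adjusted p = 0.0032), and without EV library 2 Cdh26 was called lower in TC against EV (0.042). E-cadherin was barely detected, as Cdh1 had 0 and 4 counts in EV, 9 in TC and 6, 15 and 17 in TC + ATA. Cdh1 was called higher in TC + ATA against EV without the TC library (adjusted p = 0.048) and in both comparisons without EV library 2 (0.047 and 0.018), which leaves EV at 0 counts, and P-cadherin (Cdh3) and R-cadherin (Cdh4) had between 5 and 17 counts in every library. Cdh6, a kidney and neural crest cadherin, had 6 and 12 counts in EV, 6 in TC and 0 in the 3 TC + ATA libraries, which places it at least 7.84-fold lower in TC + ATA than in EV with 3 counts over the group as the floor (adjusted p = 0.020). Cdh22, a brain cadherin, had 20 and 19 counts in EV, 8 in TC and 6, 2 and 2 in TC + ATA (log2 fold change −2.27 in TC + ATA against EV, SE 0.74, adjusted p = 0.040). Without 1 of the libraries, the adjusted p of Cdh6 rose to at most 0.050 (without TC + ATA library 2), just past the limit, and the call of Cdh22 was lost on leaving out EV library 1 (adjusted p = 0.093), EV library 2 (0.082), TC + ATA library 2 (0.13) or TC + ATA library 3 (0.12). Without TC + ATA library 1 the log2 fold change of Cdh22 was −3.10. Of the 12 type II cadherins, 5 others (Cdh7, Cdh8, Cdh10, Cdh12 and Cdh20) had no count in any library, nor did the kidney cadherin Cdh16.

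**Figure D2:**
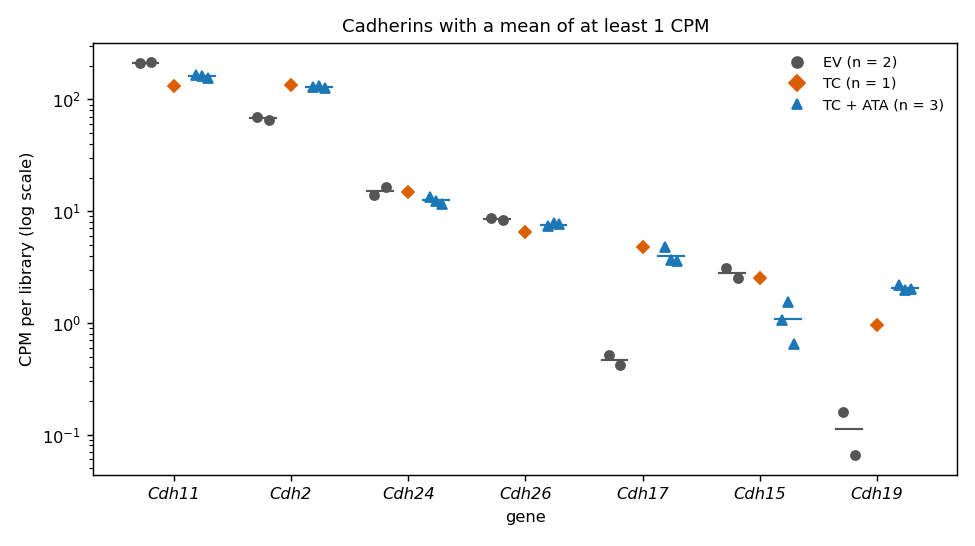
CPM in each library (y axis, log scale) of the 7 cadherins with a mean of at least 1 CPM (x axis), for EV, TC and TC + ATA libraries. Each symbol is 1 library and horizontal lines are means of groups with more than 1 library. Cdh2, Cdh17 and Cdh19 sit higher in TC and TC + ATA than in EV, Cdh11 sits lower, and Cdh15 is lower in the 3 TC + ATA libraries.

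The non-clustered protocadherins held large movements in both directions. They have 12 members, of which the delta-1 and delta-2 groups are told apart by their cytoplasmic motifs, and 10 were tested. In TC against EV 3 were higher and 3 lower, beside 14.8% and 13.2% of all genes. In TC + ATA against EV 3 were higher and 4 lower, beside 18.0% and 18.6% of all genes. RefSeq promoter windows (GRCm38.p6) were at hand for 22 members, and those of a rising and a falling pair are shown because their genes moved furthest in each direction among those with a window and a mean of at least 1 CPM. Each stretch lies before the annotated start and outside the gene's exons, runs 5′ to 3′ on the gene's strand, and has CG pairs in capitals.
Pcdh10 (chr3:45378148-45378397, plus strand, rose): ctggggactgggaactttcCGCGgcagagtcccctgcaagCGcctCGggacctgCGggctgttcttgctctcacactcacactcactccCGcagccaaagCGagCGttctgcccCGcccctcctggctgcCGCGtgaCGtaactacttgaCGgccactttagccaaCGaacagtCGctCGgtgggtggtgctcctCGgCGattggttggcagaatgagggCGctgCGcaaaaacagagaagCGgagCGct
Pcdh7 (chr5:57717831-57717966, plus strand, rose): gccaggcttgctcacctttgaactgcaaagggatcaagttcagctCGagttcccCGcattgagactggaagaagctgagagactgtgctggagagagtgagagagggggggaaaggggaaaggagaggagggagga
Pcdh9 (chr14:93890680-93890929, minus strand, fell): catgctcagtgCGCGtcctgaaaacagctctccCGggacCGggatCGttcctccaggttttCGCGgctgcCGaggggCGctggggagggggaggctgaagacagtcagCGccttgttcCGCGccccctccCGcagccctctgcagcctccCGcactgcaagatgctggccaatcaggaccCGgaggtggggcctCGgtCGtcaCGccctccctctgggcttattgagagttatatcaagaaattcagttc
Pcdh18 (chr3:49757326-49757566, minus strand, fell): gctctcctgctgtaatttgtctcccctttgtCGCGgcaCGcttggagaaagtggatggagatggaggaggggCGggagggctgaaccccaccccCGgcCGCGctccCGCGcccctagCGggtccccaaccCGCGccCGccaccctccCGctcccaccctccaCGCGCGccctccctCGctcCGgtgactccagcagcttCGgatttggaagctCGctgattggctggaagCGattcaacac
The Pcdh10, Pcdh9 and Pcdh18 stretches, of 250, 250 and 241 bases, held 22, 18 and 22 CG pairs, and the 136 bases of Pcdh7 held 2. The median of all RefSeq windows was 6 in 250 bases. The Pcdh7 stretch is shorter because the upstream bases in its exons were cut off, so its count cannot be set against this median. Neither GGAATG, the letters bound by TEAD factors, nor CAGGTG, the E-box of Snail and ZEB repressors, occurred on either strand of these 4 stretches. In the full windows, from 250 bases before the start to 50 after it, GGAATG was held by 14.7% of all 32851 windows and by 3 of the 25 member windows (Cdh9, Cdh10 and Cdh20), and CAGGTG by 20.2% of all and by 5 member windows of 3 genes (Cdh7, Pcdh15 and Pcdh7).

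Pcdh18 and Pcdh9 were far lower in all fusion-expressing libraries than in EV. Pcdh18, a delta-2 protocadherin known to bind the Reelin adaptor Dab1 (chromosome 3, 49743296 to 49757325, minus strand), had 105 and 99.6 CPM in EV, 23.5 CPM in TC, and 26.8, 25.0 and 23.3 CPM in TC + ATA. It fell by 2.12 on the log2 scale in TC against EV (SE 0.11, adjusted p = 2.3e-06) and fell by 2.03 in TC + ATA against EV (SE 0.07, adjusted p = 1.9e-07). Pcdh9, a delta-1 protocadherin of the nervous system (chromosome 14, 93013410 to 93890679, minus strand), had 7.54 and 7.33 CPM in EV, 0.475 CPM in TC, and 0.915, 0.818 and 1.04 CPM in TC + ATA. The 3 groups were apart, with TC lowest. Pcdh9 fell by 3.96 in TC against EV (log2, SE 0.28, adjusted p = 1.2e-05) and fell by 3.01 in TC + ATA against EV (log2, SE 0.17, adjusted p = 1.8e-06).

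Pcdh10 and Pcdh7 moved the other way. Pcdh10, a delta-2 protocadherin that recruits the WAVE actin regulators (chromosome 3, 45378398 to 45435623), had 0.267 and 0.275 CPM in EV, 3.17 CPM in TC, and 4.15, 4.94 and 3.81 CPM in TC + ATA. It was higher by 3.54 (log2) in TC against EV (SE 0.27, adjusted p = 1.9e-05) and 3.98 in TC + ATA against EV (SE 0.23, adjusted p = 2.5e-06). Pcdh7, a delta-1 protocadherin (chromosome 5, 57717967 to 58133230), had 7.14 and 5.72 CPM in EV, 12.6 CPM in TC, and 13.9, 15.8 and 14.2 CPM in TC + ATA. It rose by 0.98 in TC against EV (log2, SE 0.15, adjusted p = 0.0014) and by 1.19 in TC + ATA against EV (log2, SE 0.12, adjusted p = 7.2e-05). An antisense gene, 4932441J04Rik, covers 2235 of the 10604 exon bases of Pcdh7, and the libraries did not mark strand.

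Pcdh1 and Pcdh19 were the most abundant of the non-clustered group together with Pcdh18. Pcdh1, a delta-1 protocadherin of epithelia and endothelia that also serves as a hantavirus receptor (chromosome 18, 38185914 to 38212053, minus strand), had 53.6 and 47.7 CPM in EV, 96.2 CPM in TC, and 93.1, 98.0 and 85.9 CPM in TC + ATA. It was higher by 0.92 (log2) in TC against EV (SE 0.10, adjusted p = 0.00019) and 0.87 in TC + ATA against EV (SE 0.08, adjusted p = 4.4e-05). Pcdh19, a delta-2 protocadherin that pairs with N-cadherin in cis and is mutated in a form of epilepsy (chromosome X, 133582860 to 133688987, minus strand), had 93.2 and 90.0 CPM in EV, 73.6 CPM in TC, and 65.8, 73.5 and 65.3 CPM in TC + ATA. Its decrease was small, at −0.32 in TC against EV (SE 0.10, adjusted p = 0.038) and −0.43 in TC + ATA against EV (SE 0.07, adjusted p = 0.0014). The TC against EV call for Pcdh19 was lost without TC + ATA library 1 (adjusted p = 0.075), library 2 (0.055) or library 3 (0.076), which left 2 such libraries. It was also lost when only TC and EV were fitted (log2 fold change −0.31) and with the replicate block (−0.29, adjusted p = 0.19).

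Per kilobase of exon, the order of the non-clustered levels changed with the fusion. In EV, Pcdh18 led at 19.0 CPM per kilobase, ahead of Pcdh19 at 8.80 and Pcdh1 at 5.76. In TC the order was Pcdh1 at 10.9, Pcdh19 at 7.07 and Pcdh18 at 4.39, and in TC + ATA it was Pcdh1 at 10.5, Pcdh19 at 6.55 and Pcdh18 at 4.66. The lengths used were 8797 exon bases for Pcdh1 and 10407 for Pcdh19, while their longest coding transcripts have 5416 and 10289. The order of Pcdh19 and Pcdh1 in EV depends on which length is used. The other members of the group were scarce. Pcdh17, a delta-2 protocadherin, had 9 and 14 counts in EV, 6 in TC and 0, 0 and 2 in TC + ATA, and was called lower in TC + ATA against EV (log2 fold change −3.70, SE 1.12, adjusted p = 0.030), a call lost without TC + ATA library 1 (adjusted p = 0.075) or library 2 (0.095). Without TC + ATA library 3 the group has no count for Pcdh17. Pcdh12, Pcdh20 and Pcdh11x were at or below 0.211 CPM in every library and were not called, apart from Pcdh12 in TC + ATA against EV when the TC library was left out (higher, adjusted p = 0.046).

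**Figure D3:**
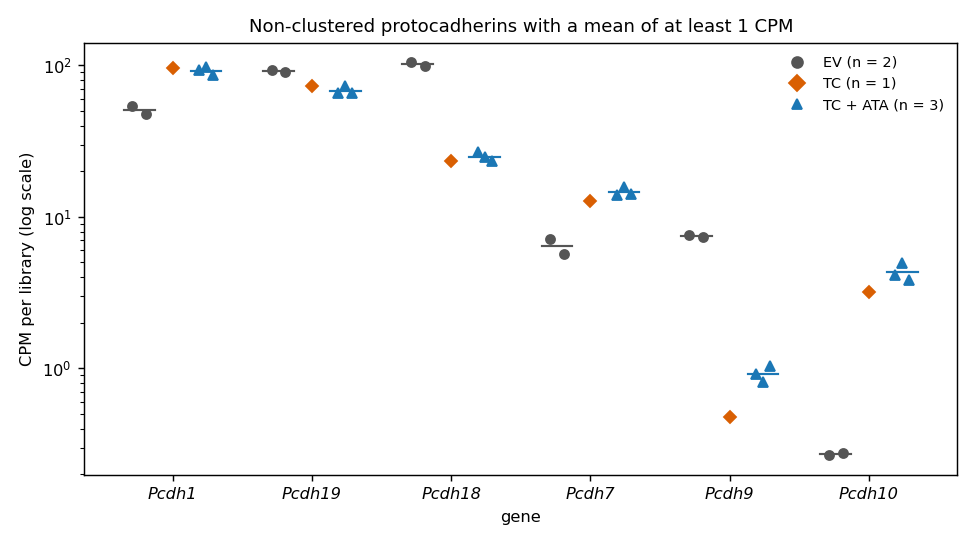
CPM in each library (y axis, log scale) of the 6 non-clustered protocadherins with a mean of at least 1 CPM (x axis), for EV, TC and TC + ATA libraries. Each symbol is 1 library and horizontal lines are means of groups with more than 1 library. Pcdh18 and Pcdh9 sit far lower and Pcdh10, Pcdh7 and Pcdh1 higher in TC and TC + ATA than in EV.

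Of the clustered protocadherins, the beta array was lower in the fusion-expressing libraries than in EV in summed level. The alpha array was scarce throughout, and its sums were lower there through 1 gene, Pcdha9. The 3 arrays lie in tandem on chromosome 18, with 14 alpha, 22 beta and 21 gamma genes among the members. The summed level of the beta genes was 115 and 109.9 CPM in EV, 39.2 CPM in TC, and 53.4, 50.7 and 45.7 CPM in TC + ATA. The gamma genes summed to 81.2 and 74.1 CPM in EV, 76.1 CPM in TC, and 80.1, 77.7 and 75.1 CPM in TC + ATA. The alpha genes summed to 2.42 and 1.82 CPM in EV, 1.24 CPM in TC, and 1.34, 1.44 and 1.28 CPM in TC + ATA. The beta sums and the alpha sums of TC and TC + ATA were thus below both EV libraries with TC lowest, while the gamma sums of the groups overlapped. In the alpha array, Pcdha9 had 1.11 and 0.918 CPM in EV and 0.245 to 0.508 CPM in TC and TC + ATA. The groups overlapped for Pcdha12, the other tested alpha gene.

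**Figure D4:**
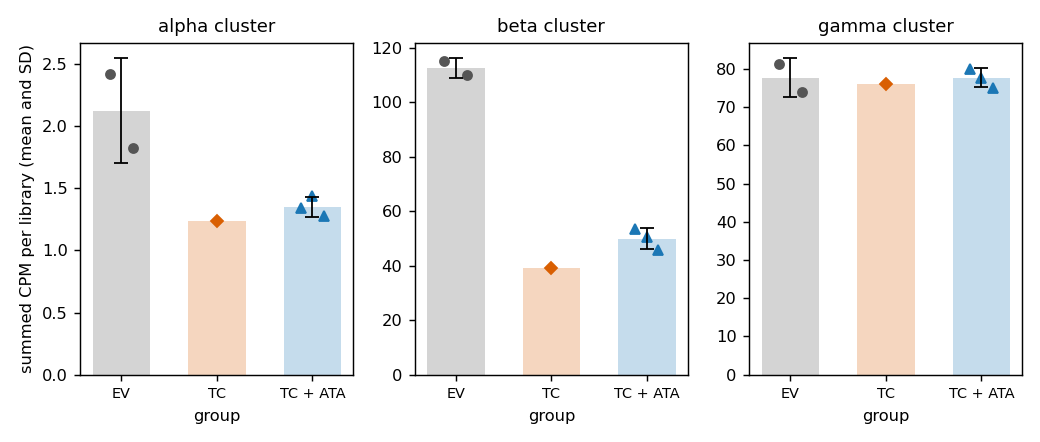
Summed CPM per library (y axis, separate linear scales from 0) of the alpha, beta and gamma protocadherin genes in EV (n = 2), TC (n = 1) and TC + ATA (n = 3). Points are libraries, bars are group means and error bars are SD where a group has more than 1 library. The beta sum is 115 and 109.9 CPM in EV against 39.2 CPM in TC and 45.7 to 53.4 CPM in TC + ATA, and the gamma sum stays between 74.1 and 81.2 CPM.

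Of the 22 beta genes, 21 were tested, and Pcdhb1, the first of the array, had no count. In TC against EV 13 were called lower and none higher, with a median log2 fold change of −1.38, or −1.22 with Pcdhb13, at 0 in TC, set at its bound of 3 counts. In TC + ATA against EV 14 were called lower and none higher, with a median of −0.86. All TC + ATA libraries were below all EV libraries for 17 of the 21 genes (81.0%), beside 30.1% of all genes tested, and were above them for 1, Pcdhb12, at 0.183 CPM or less. The gamma array had 17 of 21 genes tested, with 1 lower and none higher in either comparison and medians of −0.19 and −0.29. The alpha array had 2 of 14 tested, with 1 lower in each comparison. In TC against EV 61.9% of the tested beta genes and 5.88% of the tested gamma genes were lower, beside 13.2% of all genes. In TC + ATA against EV these shares were 66.7% and 5.88%, beside 18.6% of all genes. Of all genes, 14.8% were higher in the former comparison and 18.0% in the latter.

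Of the beta genes, those from Pcdhb5 to Pcdhb9 were called lower in both comparisons, by more than any gene from Pcdhb14 onwards. Pcdhb7 (37341702 to 37345202) had 23.6 and 20.1 CPM in EV, 4.0 CPM in TC, and 6.42, 5.29 and 5.78 CPM in TC + ATA. It fell by 2.45 on the log2 scale in TC against EV (SE 0.17, adjusted p = 1.3e-05) and by 1.91 in TC + ATA against EV (SE 0.11, adjusted p = 2.7e-06). Pcdhb5 (37320381 to 37323915) had 16.1 and 15.1 CPM in EV, 3.85 CPM in TC, and 5.38, 4.23 and 4.18 CPM in TC + ATA. Its log2 fold changes were −2.02 (SE 0.19, adjusted p = 7.0e-05) and −1.77 (SE 0.13, adjusted p = 8.9e-06). TC was the lowest library for both genes, and no EV library overlapped with the others. Pcdhb9 (37400855 to 37403909) had 14.0 and 11.9 CPM in EV, 1.70 CPM in TC, and 2.92, 3.19 and 2.33 CPM in TC + ATA. The log2 fold changes were −2.93 (SE 0.24, adjusted p = 3.2e-05) and −2.20 (SE 0.15, adjusted p = 6.7e-06). Pcdhb6 fell by 1.76 and 1.79 and Pcdhb8 by 1.91 and 1.58 on the same scale, from 6.79 and 6.91 CPM and from 3.62 and 3.53 CPM in EV.

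From Pcdhb14 onwards the log2 fold changes were smaller. Pcdhb14 (37447656 to 37456350) had 7.29 and 8.04 CPM in EV, 3.28 CPM in TC, and 4.47, 4.87 and 4.33 CPM in TC + ATA. The log2 fold changes were −1.22 (SE 0.17, adjusted p = 0.00084) and −0.75 (SE 0.12, adjusted p = 0.0012). Pcdhb17, Pcdhb18, Pcdhb19, Pcdhb20 and Pcdhb21 were called lower in both comparisons, with log2 fold changes of −1.45 to −0.79 in TC against EV and −0.95 to −0.60 in TC + ATA against EV. Pcdhb16 was called in TC against EV alone, with 8.49 and 8.39 CPM in EV, 4.97 CPM in TC, and 7.41, 6.80 and 5.45 CPM in TC + ATA (log2 fold change −0.76, SE 0.19, adjusted p = 0.018). In TC + ATA against EV its log2 difference was −0.37 (95% interval −0.68 to −0.05, adjusted p = 0.067). Pcdhb15 was not called in either comparison, at −0.52 (−1.03 to −0.01, adjusted p = 0.12) and −0.28 (−0.65 to 0.08), nor was Pcdhb22, at −0.70 (−1.24 to −0.16, adjusted p = 0.057) and −0.43 (−0.82 to −0.04, adjusted p = 0.081). Under other settings, Pcdhb22 was called lower in TC against EV by DESeq2 (adjusted p = 0.048), with library totals (0.048), with all genes that had a count (0.028) and without EV library 1 (0.010), and in TC + ATA against EV without EV library 1 (0.017). Pcdhb15 was called lower in TC against EV without EV library 2 (adjusted p = 0.035).

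Over the 21 tested beta genes, the position in the array and the log2 fold change in TC + ATA against EV had a Pearson r of 0.53 and a Spearman rho of 0.57, and in TC against EV 0.22 and 0.36. These are descriptions across neighbouring genes, which share libraries and partly sequence. All coefficients use the fold changes as fitted, so those for TC against EV include Pcdhb13 at −5.81, from 0 counts in TC. The scarce Pcdhb10, Pcdhb11 and Pcdhb12 carry as much weight as the abundant genes. At the start of the array, Pcdhb2 was called lower in both comparisons (−1.97 and −1.17), and Pcdhb3 and Pcdhb4 were called in TC + ATA against EV alone, from 0.709 and 0.564 CPM and from 0.989 and 1.13 CPM in EV. Pcdhb4 differed by −1.79 in TC + ATA against EV (log2, adjusted p = 0.0052) and by −1.61 in TC against EV (log2, 95% interval −2.83 to −0.39, adjusted p = 0.054), and it was called lower in TC against EV under 6 of the alternatives, among them DESeq2 (0.049), without EV library 1 (0.0496) and without TC + ATA library 1 (0.048). Pcdhb10 to Pcdhb13, in the middle, were at 0.485 CPM or less in every library and none was called with all libraries in the edgeR fit as described. Pcdhb13, with 1 and 14 counts in EV, was called lower in TC against EV without EV library 1 (adjusted p = 0.036), and Pcdhb10 in TC + ATA against EV without the TC library (0.034). The call for Pcdhb3 was lost without EV library 1 (adjusted p = 0.094) or TC + ATA library 1 (0.071) or 3 (0.079), that for Pcdhb19 in TC + ATA against EV without EV library 2 (0.10) or TC + ATA library 1 (0.054) or 3 (0.081), and that for Pcdhb18 in TC against EV without TC + ATA library 2 (0.060) or 3 (0.057).

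**Figure D5:**
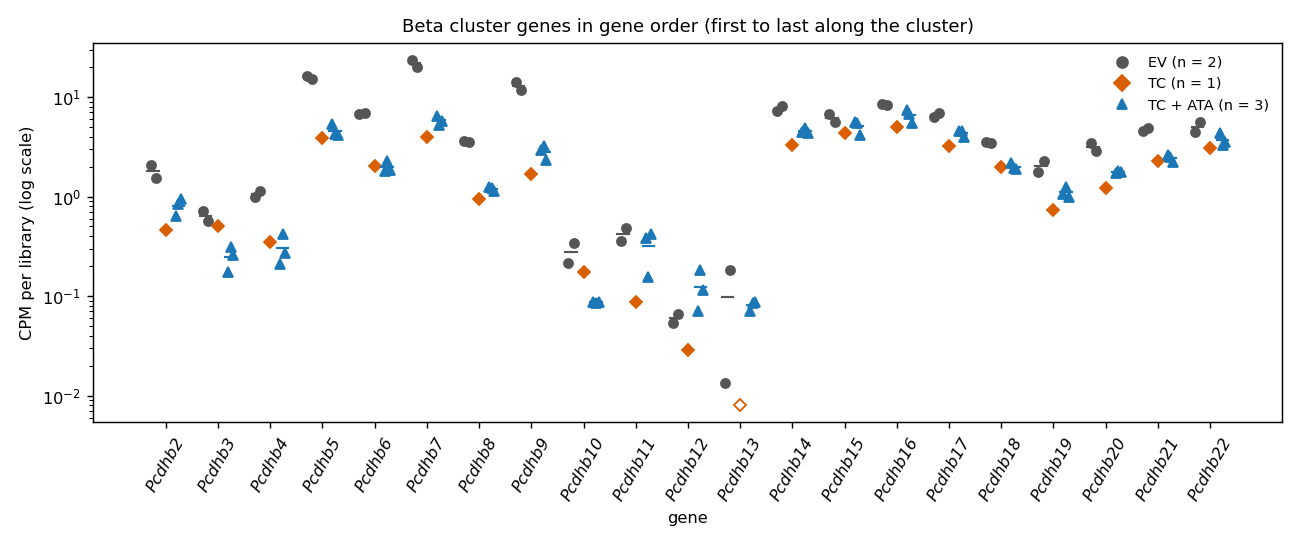
CPM in each library (y axis, log scale) of the 21 tested beta cluster genes in their order along the array (x axis), for EV, TC and TC + ATA libraries. Each symbol is 1 library, horizontal lines are means of groups with more than 1 library, and the open symbol at the bottom for Pcdhb13 stands for 0 counts in TC. The gap between EV and the other libraries is wide from Pcdhb5 to Pcdhb9 and narrower from Pcdhb14 to Pcdhb22.

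The arrays differ in how well their genes can be counted apart. All 22 beta genes are single-exon genes in the annotation, and between 0% and 12.0% of the 50-base windows of their transcripts (median 4.46%) also occur in a transcript of another gene. For the gamma genes that share was 41.2% to 65.9%, and for the alpha genes 48.2% to 97.5%, since their transcripts of 4 exons end in the constant exons. Pcdhga10 and Pcdha1 had no count while Pcdhgc3 had a mean of 52.4 CPM, so reads on the shared exons were not given to every gene of an array. Gene counts of the alpha and gamma arrays may therefore rest mainly on the variable exons, and levels per length are uncertain for them.

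Pcdhgc3, the C-type gamma gene near the end of its array (37806364 to 37841873), carried most of the gamma signal, with 51.0 and 46.9 CPM in EV, 54.2 CPM in TC, and 54.5, 55.4 and 52.0 CPM in TC + ATA. Its log2 difference was 0.15 in TC against EV (95% interval −0.06 to 0.35) and 0.14 in TC + ATA against EV (−0.01 to 0.29), so changes of the size seen for the called beta genes lay outside both intervals. Without EV library 1 Pcdhgc3 was called higher in both comparisons, at 0.19 (adjusted p = 0.037 and 0.015). The antisense gene BC037039 covers 1559 of its 5499 exon bases. With all libraries Pcdhgb2 was the only gamma gene called, with 21.6 and 19.8 CPM in EV, 14.4 CPM in TC, and 17.5, 14.3 and 15.5 CPM in TC + ATA. The log2 fold changes were −0.52 (SE 0.14, adjusted p = 0.021) and −0.39 (SE 0.10, adjusted p = 0.014). Its calls were lost in TC against EV without TC + ATA library 3 (adjusted p = 0.053) and in TC + ATA against EV without TC + ATA library 2 (0.061) or 3 (0.062). The remaining tested gamma genes were at 2.11 CPM or less in every library. Of the alpha genes, Pcdha9 fell from 1.11 and 0.918 CPM in EV to 0.245 CPM in TC and 0.352, 0.508 and 0.489 CPM in TC + ATA (log2 fold change −2.04, adjusted p = 0.016, and −1.16, adjusted p = 0.022). Its call in TC + ATA against EV was lost without EV library 1 (adjusted p = 0.076) or any 1 of the TC + ATA libraries (0.057, 0.052 and 0.061), and Pcdha12, at 0.791 to 1.26 CPM, was not called.

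The comparison of TC + ATA with TC asks whether the compound moved these genes in cells that carry the fusion. None of the 65 tested members was called in the edgeR fit as described, and 10 had an unadjusted p under 0.05, beside 1781 of all 18539 genes. With all genes that had a count, edgeR called Cdh15 lower (adjusted p = 0.044). Some edgeR fits of fewer libraries called members as well, as given in the section on how the results depend on the processing. DESeq2 called 1 member, Cdh11, higher (adjusted p = 0.024). For the 6 most abundant members, the log2 difference was 0.30 for Cdh11 (95% interval 0.12 to 0.48, adjusted p = 0.19), −0.07 for Cdh2 (−0.24 to 0.10), −0.06 for Pcdh1 (−0.28 to 0.16), −0.11 for Pcdh19 (−0.31 to 0.09), 0.00 for Pcdhgc3 (−0.19 to 0.19) and 0.09 for Pcdh18 (−0.13 to 0.30). Without EV library 1 or EV library 2 the log2 difference was 0.30 or 0.31 for Cdh11 and 0.54 or 0.55 for Pcdhb7. That of Cdh19 was 1.09 without EV library 2. These fits leave 1 EV library, so only the TC + ATA group has replicates in them. With 1 TC library, the difference between TC and TC + ATA cannot be told apart from that library's own deviation. Of the 21 beta genes, 16 were above 0 and 5 below, with a median log2 difference of 0.40. Among all genes tested, 9389 were above 0 and 9145 below, with a median of 0.003.

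Partners of the cadherins at the cell membrane moved too. The counts of this and the following lists stand beside all genes, of which 14.8% were higher and 13.2% lower in TC against EV. These shares were 18.0% and 18.6% in TC + ATA against EV, and 0.426% and 0.156% in TC + ATA against TC. Of 16 listed adherens junction partners 13 were tested, and 9 were higher and 2 lower both in TC against EV and in TC + ATA against EV, with medians of 0.74 and 0.63 on the log2 scale, and none was called in TC + ATA against TC (median −0.04). Nectin2, a nectin that starts cell contacts, had 62.0 and 56.7 CPM in EV, 239 CPM in TC and 221, 214 and 209.7 CPM in TC + ATA (log2 fold change 1.86 in TC + ATA against EV, SE 0.07, adjusted p = 2.3e-07). Pkp4, a p120-related catenin, rose by 1.21 (SE 0.07), Ctnnal1, an alpha-catenin relative, by 1.04 (SE 0.06) and Vcl, vinculin, by 0.82 (SE 0.07) in the same comparison. The 2 lower genes were Ctnnb1, beta-catenin, and Jup, plakoglobin, which were named after their values were seen, with log2 fold changes of −0.34 (SE 0.07) and −0.46 (SE 0.10). Desmosomal cadherins were all but absent, as none of 9 was tested and their summed level was at most 0.0267 CPM in a library.

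Of 18 other genes with cadherin repeats 13 were tested, with 3 higher and 1 lower in TC against EV, 4 higher and 2 lower in TC + ATA against EV, and 1 higher in TC + ATA against TC, with medians of 0.38, 0.34 and 0.17. Of the 18, 3 averaged at least 1 CPM, and the called genes other than Fat1 and Fat4 averaged 0.476 CPM or less. Fat4, the receptor of the Dachsous ligands, had 9.63 and 11.1 CPM in EV, 2.35 CPM in TC, and 5.63, 6.86 and 5.72 CPM in TC + ATA. The log2 fold changes were −2.14 in TC against EV (SE 0.20, adjusted p = 6.5e-05), −0.77 in TC + ATA against EV (SE 0.13, adjusted p = 0.0015) and 1.37 in TC + ATA against TC (SE 0.19, adjusted p = 0.018). Its groups lay apart with TC lowest, as those of Cdh11 and Pcdh9 did. Fat1 rose by 0.34 in TC + ATA against EV (SE 0.07, adjusted p = 0.0045). Of 12 enzymes that cleave cadherins, 11 were tested, with 1 higher and 1 lower in TC against EV and 4 higher in TC + ATA against EV (medians 0.03 and 0.17), and none was called in TC + ATA against TC (median 0.11). The γ-secretase subunit Aph1a rose by 1.14 (SE 0.08), and the sheddases Adam10 by 0.39 (SE 0.07) and Adam17 by 0.21 (SE 0.06) and the γ-secretase subunit Ncstn by 0.25 (SE 0.06).

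All 14 listed regulators of protocadherin promoters, among them CTCF, cohesin and DNA methyltransferases, were tested. In both TC against EV and TC + ATA against EV, 2 were higher and 1 lower (medians −0.02 and −0.06). Among all genes, 14.8% were higher and 13.2% lower in the former, and 18.0% and 18.6% in the latter. None of the regulators was called in TC + ATA against TC (median −0.06). The cohesin subunit Stag2 fell by 0.35 in TC + ATA against EV (log2, SE 0.06, adjusted p = 0.0024), while its paralogue Stag1 was higher by 0.26 (SE 0.07, adjusted p = 0.020) and the maintenance methyltransferase Dnmt1 by 0.20 (SE 0.06, adjusted p = 0.028).

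Markers of other cell types were low apart from some of those of skeletal muscle, and the summed level of the neuronal ones was lower in TC and TC + ATA than in EV. The 10 neuronal markers summed to 24.2 and 25.0 CPM in EV, 15.7 CPM in TC and 9.59 to 11.4 CPM in TC + ATA, and of the 8 tested 2 were lower in TC against EV and 6 lower in TC + ATA against EV, with median log2 differences of 0.06 and −1.10. In TC + ATA against TC their median was −0.74, where that of the beta genes was 0.40. Of the 10 neuronal markers, 5 averaged at least 1 CPM, among them Map2 at 8.82 and 10.1 CPM and Snap25 at 2.09 and 2.94 CPM in EV. The lowest were Rbfox3 and Syt1, at 0.0352 CPM or less in every library. Endothelial markers summed to 4.38 to 7.13 CPM and leukocyte markers to 11.6 to 21.7 CPM. The part of these markers in the falls of the protocadherins was not tested.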

How the data were processed

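The 91 members and all gene lists were chosen with earlier results of these data known. Poly(A) RNA of NIH3T3 cells was sequenced as 6 libraries of read pairs (Illumina HiSeq 4000, NEBNext Ultra II kit, which does not mark strand). The authors aligned with HISAT2 (version 2.2.1 in the submitters' processing notes) to GRCm38.p6 (mm10) and counted with featureCounts in Galaxy. The annotation release, the strand setting and the treatment of reads on several genes or positions are not given in the sources used here, so genes with shared or antisense exons, and near-identical paralogues, are uncertain. The deposited values are unnormalized counts per Ensembl gene, and were used as deposited.

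Of 55401 identifiers, 55141 matched GENCODE M21 (GRCm38), which gave symbols, types and positions. More than 1 identifier bears the name Pcdha11. Groups came from the labels. Counts were fitted in R 4.3.3 with edgeR 4.0.16 (TMM, filterByExpr with its minimum count of 10, glmQLFit and glmQLFTest, group as the only term, 3 residual degrees of freedom, Benjamini-Hochberg over 18539 genes, limit 0.05). Intervals are 95% and cover the spread in this model. CPM per kilobase used exon bases not shared with another gene. Python 3.11.15 was used for lists and promoters. The fit was tested on simulated data. Alternatives were DESeq2 1.42.0, library totals without TMM, other filters on low counts (all genes with a count, or 1 CPM in 2 libraries), only the groups compared, a replicate block, and leaving out each library. Depth was 58471484 to 74413193 counts, and 3 counts in the smallest library equal 0.0513 CPM.

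Any tested member could be named with its CPM. Fold changes are given for members called in a comparison and, with intervals, for up to 6 further members with the highest mean CPM. Of each partner list at most 4 called genes averaging 1 CPM or more and with the largest change in TC + ATA against EV are named, and Ctnnb1 and Jup, the 2 lower adherens junction partners, were added after their values were seen.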

Additional observations from a re-analysis of the deposited data

How the results depend on the processing

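No call of a member reversed its direction under any alternative. Of the 25 members called in TC against EV, 20 kept their call in every alternative that tested them, and of the 30 called in TC + ATA against EV, 23 did. The counts of members called in these 2 comparisons stayed within 1.5 times of 6 higher and 19 lower, and of 6 higher and 24 lower. In TC + ATA against TC, where no member was called, DESeq2 called 1 higher (Cdh11), a fit of only those 2 groups called 2 higher (Cdh11 and Cdh19), leaving out 1 library called 0 to 3 higher, and testing all genes with a count called 1 lower (Cdh15, adjusted p = 0.044). These genes were named after their values were seen, and the cause of these calls was not tested. Outside the called members, 8 in TC against EV and 7 in TC + ATA against EV were called under at least 1 alternative, Pcdhb4 under 6 in TC against EV and Pcdhb22 under 4, Cdh26 under 2 and Pcdhb11, Pcdhb13, Pcdhb15, Pcdhgc3 and Cdh1 under 1. In TC + ATA against EV these were Cdh1 (4), Cdh24 and Pcdhb10 (3 each), Pcdhb16, Pcdh12 and Pcdhgc3 (2 each) and Pcdhb22 (1). DESeq2 gave no adjusted p for 9 members in TC against EV and 19 in TC + ATA against TC.

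Same-numbered EV and TC + ATA libraries had deviations with correlations of −0.029 and −0.086. The deviations of the 2 EV libraries mirror each other, so these values cannot show whether same-numbered libraries belong together. With the replicate block, 6 members were higher and 15 lower in TC against EV, 6 higher and 18 lower in TC + ATA against EV, and 0 were called in either direction in TC + ATA against TC. The block lost the TC against EV calls of Pcdha9, Pcdhb18, Pcdhb19 and Pcdh19. In TC + ATA against EV it lost those of Pcdha9, Pcdhb3, Pcdhb19, Pcdh17, Cdh6 and Cdh22. Fitting only TC and EV lost the calls of Pcdhb18 and Pcdh19. DESeq2 lost the TC + ATA against EV call of Cdh22 (adjusted p = 0.062).

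Counts of at most 20 a library (Cdh1, Cdh3, Cdh4, Cdh6, Cdh22, Pcdh17) limit what can be seen. With 1 TC library and 2 EV libraries, few degrees of freedom set the spread.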
